A study of Mus musculus with 4 samples.

Results

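Transcripts of the synaptic vesicle and SNARE machinery were examined among mRNA 3′ ends recovered from the dendritic layer of hippocampal area CA1. Members were taken by gene name, with a rule that covered the SNAP, syntaxin, VAMP and synaptotagmin families, the syntaxin-binding proteins, complexins, Nsf and its SNAP adaptors, synapsins, synaptophysin, synaptogyrins and SV2 proteins, the active zone proteins Bsn, Pclo, Unc13 and Rims, and the endocytic dynamins and synaptojanins. The rule found 82 of the 9297 polyA sites in the table and 56 of its 7202 gene names. Snap25, chosen as the marker of the group, was detected at 1 site in every library. The measured values were tags, which are the RNA fragments crosslinked to a GFP-tagged poly(A)-binding protein (Pabpc1) and sequenced up to the junction with the poly(A) tail (cTag-PAPERCLIP). All 4 libraries belonged to 1 group, CA1 neuropil from Camk2a-Cre x Pabpc1-cTag mice on a C57BL/6 background, and no library of another compartment, genotype or treatment was analysed here. Every animal thus carried both the Cre transgene and the tagged allele. Because Cre was driven from the Camk2a promoter, the tag was placed in excitatory neurons, and each library pooled several animals according to the study. The neuropil also holds axons, glia and vessels. The libraries were purified through the tagged protein and are not bulk tissue, so marker shares do not measure cell numbers or RNA per cell.

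Vesicle fusion at synapses is carried out by SNARE proteins. Synaptobrevin (Vamp2) on the vesicle zippers together with Snap25 and a syntaxin on the plasma membrane, synaptotagmins sense the calcium that triggers fusion, complexins control the assembled complex, and the ATPase Nsf with its adaptors takes it apart afterwards. Most of these proteins act in the axon terminal, but relatives serve membrane traffic in all compartments, including the insertion of receptors in dendrites.

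The 4 libraries held 16017, 6609, 5947 and 6099 tags at all sites of the table, and 34672 in all. The pyramidal neuron markers made up 0.521% to 0.787% of tags by the names in the table, with 7 of the 10 genes detected. Camk2a and Slc17a7 were at 0 by name, but 215 tags lay in Camk2a and 23 in Slc17a7 by position. By library these were 152, 24, 12 and 27 for Camk2a and 8, 3, 4 and 8 for Slc17a7. They are outside the shares above, and most of the Camk2a tags lay in library 1. Astrocyte markers took 0.0984% to 0.281% (7 of 7 genes), oligodendrocyte markers 0.131% to 0.545% (6 of 6), interneuron markers 0.0303% to 0.246% (4 of 9, with Gad2 and Slc32a1 at 0 by name, 2 Gad2 tags by position, and 22 of the 33 tags named Npy), microglial markers 0% to 0.0605% (3 of 7, with Cx3cr1 and Csf1r at 0 by name and 3 Cx3cr1 tags by position) and blood markers 0.0250% to 1.28% (3 of 6). The oligodendrocyte share was highest in library 2 and the blood share in library 3.

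Of the 15 member sites seen in all 4 libraries, 13 are shown first because most tags of the group fell at such sites. Each sequence spans 30 bases of the transcribed strand, 5′ to 3′, starting 10 bases before the listed position. The polyA signal, AATAAA or ATTAAA, that starts nearest to the listed position is in capitals. The Syt11 window also holds ATTAAA, left in lower case. Cplx2 had neither, and there the capitals mark AAGAAA, a variant word. These sequences were read from the RefSeq GRCm38.p6 genome, which has the mm10 coordinates.
Snap25 (chr2:136782391-136782420, plus strand): gtttaaaattATTAAAaattatagatcaca
Cplx2 (chr13:54383884-54383913, plus strand): accatgatgacaAAGAAAaagaccttgtac
Vamp2 (chr11:69092351-69092380, plus strand): tgaaaatgtacAATAAAcgtgtaatgagta
Syt11 (chr3:88744701-88744730, minus strand): cagAATAAAgactgattctgattaaatagg
Dnm1 (chr2:32308470-32308499, minus strand): AATAAAacccatttctggatcatggggaat
Snap47 (chr11:59407145-59407174, minus strand): gcgtAATAAAagaatgtttattcgatgact
Cplx1 (chr5:108518564-108518593, minus strand): tgagggaatcacagccAATAAAcagtgatt
Sv2a (chr3:96195485-96195514, plus strand): gctgaaaAATAAAgggttcgaacccttaaa
Syp (chrX:7653223-7653252, plus strand): aaccccccccAATAAActcctcaactatct
Nsf (chr11:103821790-103821819, minus strand): aattgaaggaatgcAATAAAgagtaaatat
Syngr1 (chr15:80119468-80119497, plus strand): tgacatagtAATAAAgtgaagagtcaactc
Stxbp5 (chr10:9759952-9759981, minus strand): attatttaATTAAAattgctaaaacagcag
Snap91 (chr9:86765937-86765966, minus strand): gccctctgagatgcAATAAAcaccttgaac
At least 1 of the 2 main signals was present in 12 of these 13 windows, and the signal in capitals started between 10 bases before and 6 bases after the listed position. Snap25, the most tagged member, and Stxbp5 had ATTAAA, the weaker of the pair, and in the remaining 10 the marked signal was AATAAA.

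Vesicle and SNARE genes together had 491 tags. Library 1 held 176 of them, library 2 held 65, library 3 held 103 and library 4 held 147. As shares of all tags these were 1.10% (95% Wilson interval 0.949% to 1.27%), 0.984% (0.772% to 1.25%), 1.73% (1.43% to 2.10%) and 2.41% (2.05% to 2.83%). The mean was 1.56% ± 0.658 (SD, n = 4). Libraries 1 and 2 had overlapping intervals, as did libraries 3 and 4, and libraries 1 and 2 lay below the other 2. Snap25 carried much of this spread. Without it the shares were 0.905%, 0.938%, 1.13% and 1.48% (1.11% ± 0.262), with libraries 3 and 4 still the highest. The intervals and limits given here cover counting error only, because PCR copies may be counted as separate tags.

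Tags were concentrated in a few genes. Of the 56 genes, 18 had at least 10 tags over the libraries (32.1%; 7.4% of all genes in the table had as many), and these 18 held 394 of the 491 tags (80.2%). Tags were found in all 4 libraries for 16 genes (28.6%, against a background of 7.76%), and 16 genes had 1 tag in all (28.6%, against 43.7%). By mean share Snap25 ranked 9 and Cplx2 ranked 54 among all genes, and these were the 2 members above 0.1%. Together they took 182 tags, or 37.1% of the group.

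**Figure D1:**
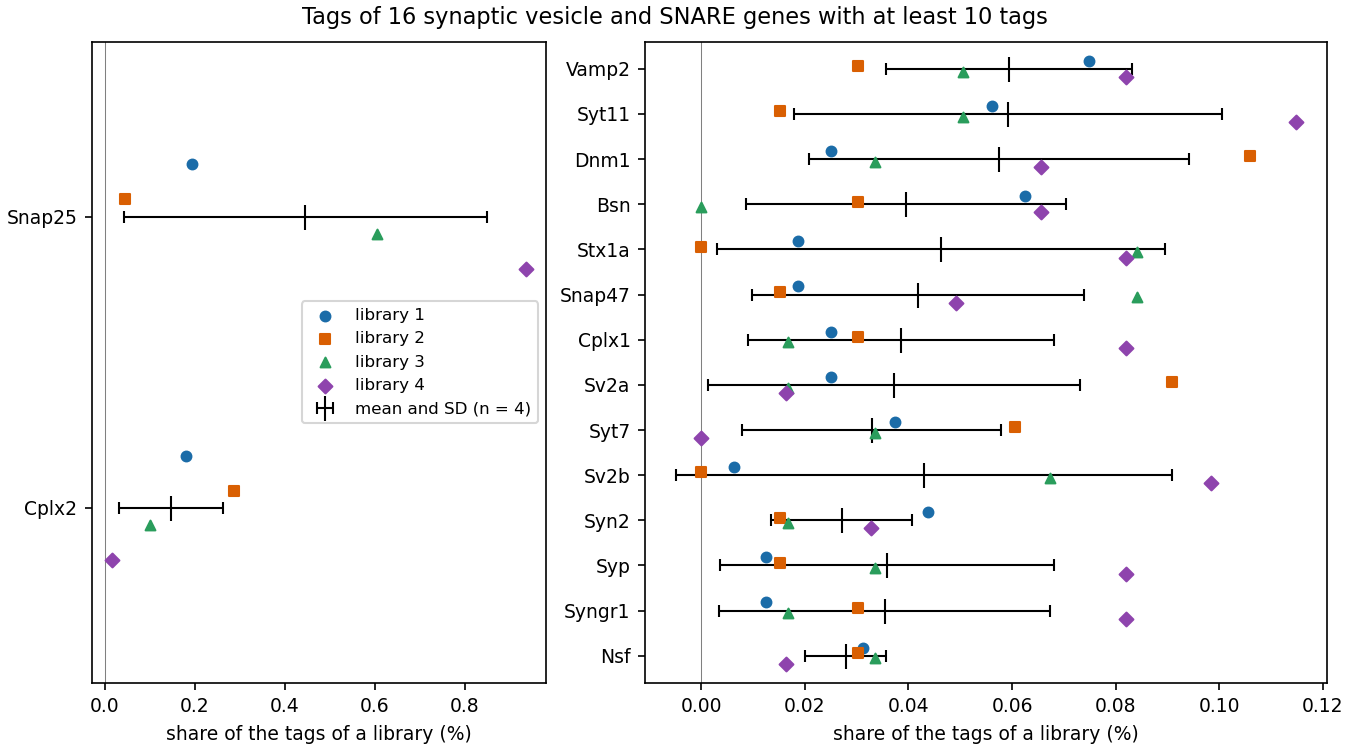
Share of all tags of a library (x axis, %) for 16 of the 18 vesicle and SNARE genes with at least 10 tags, with 1 point for each of the 4 libraries and a bar for the mean and SD. Snap25 and Cplx2 are on a wider scale at left: Snap25 reached 0.935% in library 4, and at right the highest point, Syt11 in library 4, stood at 0.115%.

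Plasma membrane SNAREs had the most tags of any role, with 165 tags over 6 genes. Snap25, which contributes a pair of the helices of the fusion complex, had 31, 3, 36 and 57 tags in libraries 1 to 4 at its single site (chromosome 2, position 136782401, plus strand, 3′UTR). These counts were 0.194% (95% Wilson interval 0.136% to 0.275%), 0.0454% (0.0154% to 0.133%), 0.605% (0.438% to 0.837%) and 0.935% (0.722% to 1.21%) of the tags of each library, with a mean of 0.445% ± 0.403, and 0.281% without library 4. Library 2 was low and libraries 3 and 4 were high, and the intervals of libraries 1 and 2 overlapped neither of the other 2. Stx1a, a neuronal syntaxin that pairs with Snap25, had 3, 0, 5 and 5 tags. Its tags were missed in library 2, where Snap25 was also lowest. Snap47, a Snap25 relative found on inner membranes as well, had 3, 1, 5 and 3 tags. Stx2 had 2 tags, both in library 3, and Snap23, the form of Snap25 used widely outside neurons, had 1.

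Among SNARE regulators, 10 genes shared 117 tags. Cplx2, a complexin that binds the assembled SNARE complex, led with 29, 19, 6 and 1 tags. All but 1 of these came from the site in the last exon (chromosome 13, position 54383894, plus strand, 3′UTR); the remaining tag, in library 1, lay 71108 bases upstream in a noncoding exon of Gm48623. The share was highest in library 2 at 0.287% (95% Wilson interval 0.184% to 0.449%) and lowest in library 4 at 0.0164% (0.00289% to 0.0928%), and these intervals did not overlap. Cplx1, the paralogue, had 4, 2, 1 and 5 tags. Nsf had 5, 2, 2 and 1 tags, 0.0279% ± 0.00778, the smallest SD relative to the mean among the 18 genes. Napb, the brain form of the Nsf adaptor, had 9 tags (5, 0, 1 and 3) and Napg had 2. Stxbp5 (tomosyn), which inhibits fusion, had 1, 1, 2 and 3 tags. Stxbp5l had 5, Stxbp4 2 and Stxbp6 1.

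Snap25 and Cplx2 ran in opposite orders across the libraries. Of the tags of these 2 genes, Snap25 took 31 of 60 in library 1 (51.7%, 95% Wilson interval 39.3% to 63.8%), 3 of 22 in library 2 (13.6%, 4.75% to 33.3%), 36 of 42 in library 3 (85.7%, 72.2% to 93.3%) and 57 of 58 in library 4 (98.3%, 90.9% to 99.7%). The intervals of libraries 1, 2 and 4 did not overlap each other. All 4 libraries carried the same group label, so this is a difference between replicates, without a test between conditions. GC content over 100 bases on either side was 34.3% at the Snap25 site and 49.3% at the main Cplx2 site, and over the tags of all sites outside the group it was 42.1% in library 2 against 38.9% in each of the other 3. At the 3′UTR sites outside the group, which leave out an intron site of Hdac8 with 4030 of the 16017 tags of library 1, it was 40.2%, 42.6%, 38.8% and 38.6% in libraries 1 to 4. That order was the same as for Cplx2 and the opposite of that for Snap25. Over 50 bases on either side the 3′UTR sites gave 35.7%, 38.1%, 34.3% and 34.2%, in the same order, and all sites outside the group gave 40.2%, 38.8%, 35.2% and 35.1%, with library 1 highest. The share of interneuron markers, 0.0499%, 0.0303%, 0.135% and 0.246% in libraries 1 to 4, had the same order as Snap25, with Npy as its leading gene and Slc32a1 at 0. The share of oligodendrocyte markers, 0.281%, 0.545%, 0.185% and 0.131%, had the same order as Cplx2, as did that of microglial markers (0.0375%, 0.0605%, 0.0168% and 0%, from 11 tags). Astrocyte markers, at 0.281%, 0.151%, 0.168% and 0.0984%, followed neither order. Pyramidal neuron markers by name (0.724%, 0.787%, 0.521% and 0.754%) and blood markers (0.0250%, 0.560%, 1.28% and 0.148%) did not either. The part of base composition or of these cell types in the result was not tested.

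**Figure D2:**
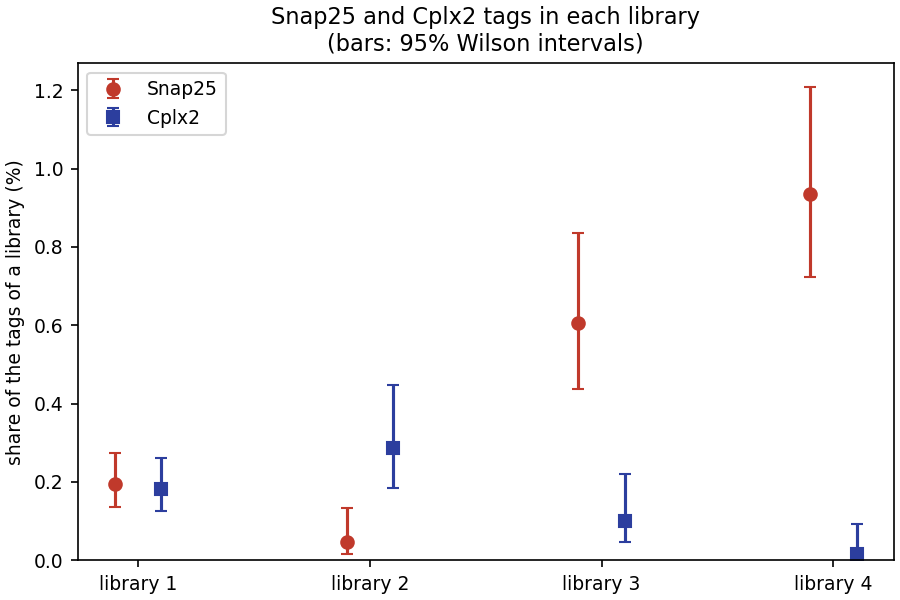
Snap25 and Cplx2 tags as a share of all tags (y axis, %) in each of the 4 libraries; bars are 95% Wilson intervals for counting error. Cplx2 stood at 0.287% and Snap25 at 0.0454% in library 2, and Snap25 was the higher gene in the other 3, by 31 tags against 29 in library 1.

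Vesicle SNAREs had 24 tags. Vamp2, the synaptobrevin of synaptic vesicles, had 12, 2, 3 and 5 tags at 1 site (chromosome 11, position 69092361, plus strand, 3′UTR), or 0.0594% ± 0.0237. It was present in all libraries. Vamp1 and Vamp3 had 1 tag each, both in library 1, and the Vamp3 site also lay within Camta1. SNAREs of endosomes, the Golgi and the endoplasmic reticulum had 9 tags over 7 genes (Stx7 and Stx12 with 2 tags, and Stx11, Stx16, Stx18, Vamp4 and Vamp8 with 1), and each of the 9 tags lay at a site of its own.

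Synaptotagmins had 53 tags over 10 genes under their own names. Syt11, which does not bind calcium, had 9, 1, 3 and 7 tags. Syt7, a high-affinity calcium sensor, had 6, 4, 2 and 0. Syt4, the closest relative of Syt11, had 1, 1, 2 and 2. These values placed Syt11 first among synaptotagmins listed by name, although its share in library 2 was lower than that of Syt7. Syt5, Syt10 and Syt16 had 3 tags each, Syt13 and Syt17 had 2, and Syt2 and Syt6 had 1.

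The fast calcium sensor Syt1 was missing by name, yet its 3′ end was tagged. A pair of sites inside the vM21 3′UTR of Syt1 was listed under the name Gm5136, whose annotated end lay 201 kb and 199 kb away. The site at position 108497674 of chromosome 10 (minus strand) had 5, 1, 3 and 8 tags, and the site at 108499265 had 0, 0, 1 and 1. By position Syt1 therefore had 19 tags. Its share was 0.0653% ± 0.0590 (SD, n = 4), and 0.0379% without library 4, where it was highest. Syt11 had 0.0591% ± 0.0413, and the difference between these means was smaller than either SD. In the same way a site in the Syn1 3′UTR (chromosome X, position 20860547, minus strand), listed as Mir5617, had 2, 2, 0 and 0 tags, and a site in the Unc13a 3′UTR (chromosome 8, position 71626779, minus strand), listed as Mir6769b, had 2 tags, both in library 4. The symbols of these 3 genes match the name rule, but the names listed at their sites do not, so the genes enter no count of members. They were picked out after their values were seen. Taking gene names from the annotation instead moved the share of the group to 1.59% ± 0.707.

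The sequence at the main Syt1 site is shown because the name in the table does not identify it, and AATAAA is in capitals.
Syt1 (chr10:108497655-108497684, minus strand): tggacactcAATAAAaatgttttatttcct

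Vesicle membrane proteins and synapsins had 61 tags over 9 genes. Syn2, a synapsin that tethers vesicles to one another, had 7, 1, 1 and 2 tags. Sv2a, a vesicle glycoprotein, had 4, 6, 1 and 1, and its paralogue Sv2b had 1, 0, 4 and 6. In these counts Sv2a was highest in library 2, where Sv2b had no tag. Synaptophysin (Syp), an abundant membrane protein of vesicles, had 2, 1, 2 and 5 tags. Syngr1 (synaptogyrin) had 2, 2, 1 and 5. Both were highest in library 4. Syngr3 had 3 tags, Sypl 2, and Sypl2 and Syn3 1 each.

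Active zone and priming proteins had 29 tags over 7 genes. Bsn (bassoon), a giant scaffold of the release site, had 10, 2, 0 and 4 tags. Rims1, which links vesicles to calcium channels and Unc13 proteins, had 6 tags (3, 0, 1 and 2). The other scaffold, Pclo, had none. Unc13c and Rims4 had 2 tags each, and Rims2, Rims3 and Unc13b had 1. Endocytic proteins had 33 tags over 4 genes. Dnm1, the neuronal dynamin that cuts vesicles from the membrane, had 4, 7, 2 and 4 tags, with the highest share in library 2. Synj1, the lipid phosphatase that helps uncoat vesicles, had 2, 0, 0 and 4. Snap91 (AP180), a clathrin adaptor and no SNARE despite its symbol, had 3, 1, 1 and 1 tags. Dnm3 had 4.

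As a share of the group, plasma membrane SNAREs took 23.3%, 10.8%, 47.6% and 46.3% of tags in libraries 1 to 4 (32.0% ± 18.003), and SNARE regulators took 29.5%, 41.5%, 15.5% and 15.0% (25.4% ± 12.7). SNARE regulators were ahead in libraries 1 and 2 and plasma membrane SNAREs in libraries 3 and 4. The synaptotagmin share varied least relative to its mean, from 9.23% to 12.6% (10.7% ± 1.60). Vesicle membrane proteins and synapsins took 12.9% ± 3.12, endocytic proteins 7.53% ± 4.35, active zone proteins 5.23% ± 2.40, vesicle SNAREs 4.34% ± 2.42 and other SNAREs 1.95% ± 1.36. Without Snap25, plasma membrane SNAREs took 11.2% of the remaining tags, and without Cplx2, SNARE regulators took 14.4%.

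**Figure D3:**
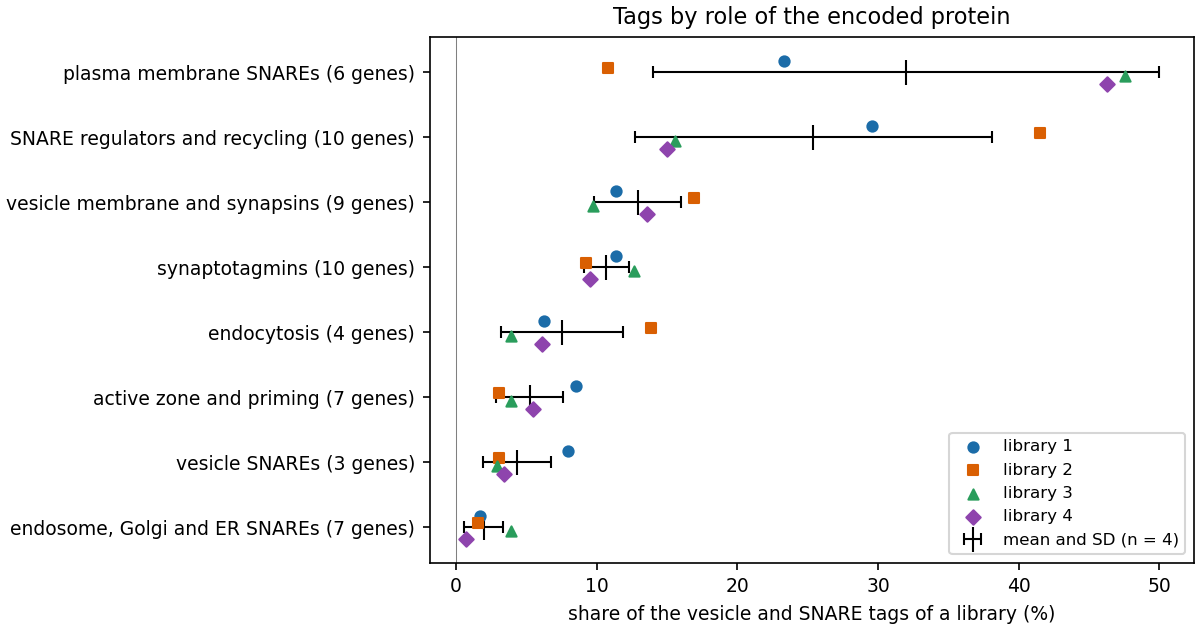
Share of the vesicle and SNARE tags of a library (x axis, %) taken by the genes of each role, with 1 point per library and bars for the mean and SD of 4 libraries. Plasma membrane SNAREs ranged from 10.8% to 47.6%, whereas synaptotagmins stayed between 9.23% and 12.6%.

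The spread between libraries was compared with counting error through a chi-square per degree of freedom, in which 1 is the value of sampling noise and the expected tags follow the 3′UTR tags of each library. It was above 2 for 6 of the 18 genes, among them Snap25 at 25.6, Cplx2 at 5.59, Sv2b at 4.56, Stx1a at 3.02 and Syp at 2.05. For the other 12 it was under 2, with Nsf lowest at 0.265. The median of the 18 was 1.89, against 2.22 for all 533 genes with at least 10 tags, of which 248 (46.5%) were under 2. Genes with about 10 tags can show only large departures.

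Of the 82 sites, 33 had tags in more than 1 library (40.2%, 95% Wilson interval 30.3% to 51.1%), where 34.2% of all sites did. Tags in all 4 libraries were found at 15 sites (18.3%, 11.4% to 28.0%), where 4.9% of all sites had them. At least 10 tags were found at 16 sites (19.5%, against 5.17%). A single tag in all was found at 46 sites (56.1%), close to the 57.2% of the whole table.

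Most tags fell in annotated 3′UTRs. In the GENCODE vM21 annotation 68 of the 82 sites lay in a 3′UTR (82.9%, against 76.5% of all sites), 11 lay between genes (13.4%, against 15.3%), and an intron, a coding exon and a noncoding exon held 1 each. By tags, 474 of 491 were at 3′UTR sites. The 3′UTR share was 96.6%, 96.9%, 94.2% and 98.0% in libraries 1 to 4, compared with 60.5%, 80.9%, 72.8% and 79.7% for the tags at all other sites. The difference was 36.1, 16.1, 21.4 and 18.3 percentage points (22.9 ± 9.02, SD, n = 4), above 0 in 4 of 4 libraries, and the exact sign-flip permutation test over libraries gave p = 0.125, two-sided, the smallest that 4 libraries allow. The gap was largest in library 1, where 4030 of the 16017 tags lay at 1 site in an intron of Hdac8. Without that site the mean difference was 17.0 ± 1.86 points.

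The 11 sites between genes were checked against RefSeq, and 6 of them lay inside the RefSeq gene of the same name. The 3 Stxbp5l sites, 3.32 to 7.62 kb past the vM21 end, were among these, as were 1 site each of Rims1, Syn3 and Syt10. The Stxbp5l sites held all 5 tags of that gene. The other 5 sites, with 1 tag each, lay past the gene end in both annotations. Measured from the vM21 end, the tag named Rims1 lay 145 kb away, that of Syt10 78.7 kb, that of Stx11 8.58 kb, that of Snap23 1.74 kb and that of Dnm1 0.61 kb. For these 5 the name in the table is the only tie to the gene, and the single tags counted for Stx11 and Snap23 are among them. The coding-exon site, in Rims1 (chromosome 1, position 22805611, minus strand), had 1 tag.

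Tagged 3′UTRs of the group were long. From the stop codon to the site, the 68 sites had a median of 1794.5 bases (quartiles 1153 and 2927 bases), against 1130 (483 and 2282.5) for the 6504 sites of the table inside a 3′UTR of the gene they are named for. When a site could belong to several transcripts, the longest 3′UTR was taken. Weighted by tags, the median was 1977, 2350, 1258 and 1401 bases for the group and 1163, 1056, 1097 and 1258 bases for all such sites in libraries 1 to 4. The group was longer in each library, by the least in library 4. The value of 1258 bases in library 3 is the length of the Snap25 3′UTR, and the Cplx2 3′UTR had 4185 bases.

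**Figure D4:**
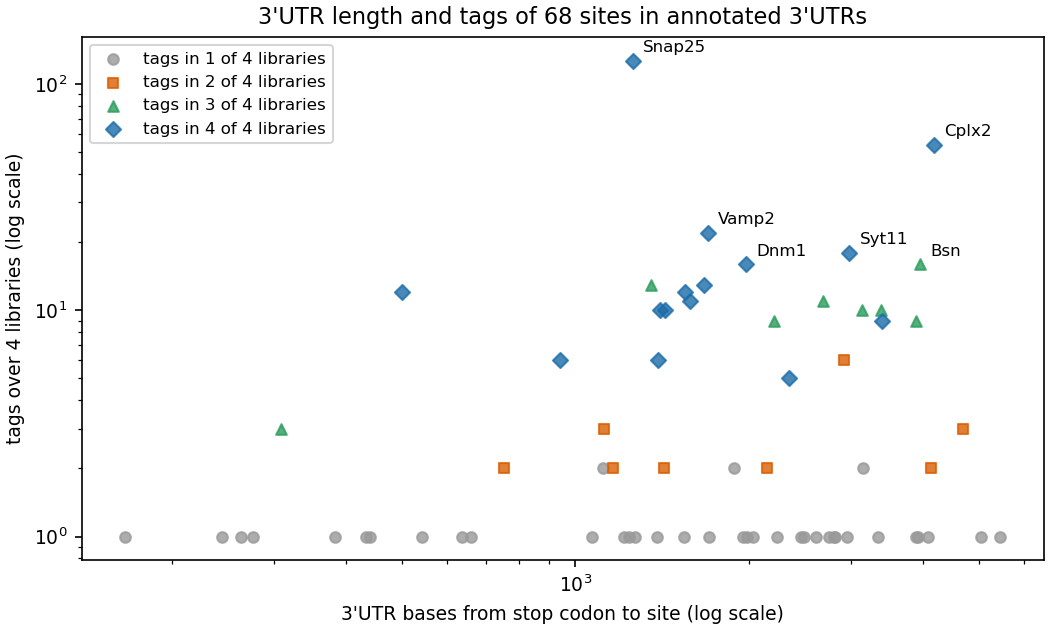
Tags over the 4 libraries (y axis, log scale) against the 3′UTR length in bases from the stop codon to the site (x axis, log scale) for the 68 sites in annotated 3′UTRs; symbols give the number of libraries with a tag. Snap25 stands highest at 1258 bases and 127 tags, and Cplx2 next at 4185 bases and 54 tags.

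Of the 82 sites, 50 lay within 100 bases of an annotated transcript end of the gene (61.0%, compared with 56.3% of all sites), and 49 of these lay before it. The median position of the 50 was 23 bases short of the end, against 21 bases short for all sites within 100 bases of one. A main polyA signal was found within 50 bases on either side at 66 of 82 sites (80.5%, 95% Wilson interval 70.6% to 87.6%), near the 78.2% of all sites. With the search limited to bases upstream the share was 20.7%, against 30.3% of all sites, so the group was then below the table. The nearest signal started a median of 0 bases from the listed position for the group and 2 bases before it for all sites. Among the 33 sites in more than 1 library, 31 had a main signal (93.9%, 80.4% to 98.3%), whereas 35 of the 49 sites in 1 library did (71.4%, 57.6% to 82.2%). The corresponding values over all sites were 84.3% and 75.1%. Cplx2 was 1 of the 2 exceptions among the 33. Cplx2 took 29.2% of the tags of the group in library 2 and 0.680% in library 4, and the share of tags at sites with a main signal was 61.5% and 96.6% in these libraries. AAGAAA, the word at the Cplx2 site, occurred within 50 bases on either side at 14.2% of all sites, so its presence there is common.

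A pair of other words in the stretch from 100 bases before to 20 bases after the site was counted on the transcribed strand. TTTTAT, a core of the cytoplasmic polyadenylation element, was found at 11 sites (13.4%, 7.66% to 22.4%), against 17.2% of all sites. TGTA, bound by the cleavage factor CFIm and by Pumilio proteins, was found at 55 sites (67.1%, 56.3% to 76.3%), against 62.8%. Both background values lay within the interval of the group.

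The GC content around tagged sites, averaged over tags, was 42.3%, 46.6%, 39.1% and 40.4% for the group and 38.9%, 42.1%, 38.9% and 38.9% for other sites in libraries 1 to 4. The group was higher by 3.45, 4.46, 0.21 and 1.53 points, a mean of 2.41 ± 1.90 and above 0 in 4 of 4 libraries (exact sign-flip permutation test, p = 0.125, two-sided, the smallest possible). Snap25 lowered the value. Without it the group stood at 44.0%, 47.1%, 41.7% and 44.3%, and the difference was 4.60 ± 1.21 points. With 50 bases on either side the difference was 1.43 ± 2.28 points, and it was -1.63 points in library 1. At 3′UTR sites alone it was 2.99, 3.17, 2.43 and 4.91 points at that window (3.38 ± 1.07), positive in 4 of 4 libraries.

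**Figure D5:**
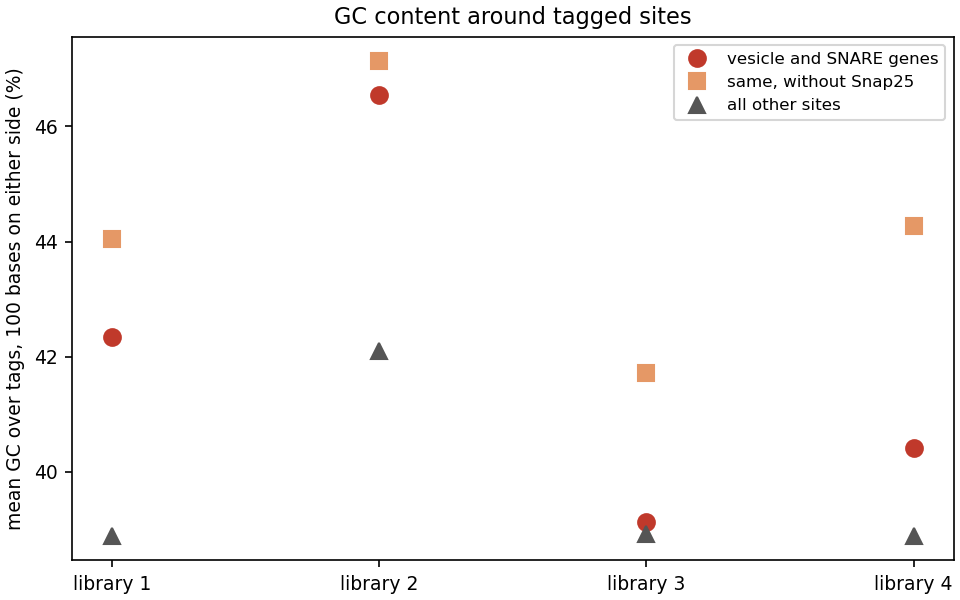
Mean GC content over tags (y axis, %, 100 bases on either side of the site; the axis does not start at 0) in each library for vesicle and SNARE genes, for the same genes without Snap25, and for all other sites. Library 2 is highest in all 3 sets, at 46.6% for the group and 42.1% for other sites.

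More than 1 site was listed for 20 of the 56 genes (35.7%, against 21.7% of all genes). For the 8 such genes with at least 10 tags, the most used site held at least 81.8% of the tags. Of 15 genes with several 3′UTR sites, 12 had an annotated stop codon common to all sites (80.0%, 95% Wilson interval 54.8% to 93.0%). The background was 91.7% of the 806 genes of the table with several sites in their own 3′UTRs. With that shared stop codon the 3′ ends differ in 3′UTR length and leave the coding sequence as it is. The proximal Napg site also lay behind a further stop codon, so there the coding sequence could differ. In the other 3, Syn2, Dnm3 and Syngr1, the sites followed different stop codons, so that the coding sequence differs as well.

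The distal site of these 15 genes had more tags than the proximal site in 8 genes and fewer in 2, with 5 ties. The distal site thus led in 53.3% (95% Wilson interval 30.1% to 75.2%), against 45.8% of the 806 genes, a background within the interval. Summed over the 15 genes, distal and proximal sites had 27 and 11 tags in library 1, 16 and 4 in library 2, 12 and 8 in library 3, and 24 and 5 in library 4. With 0.5 added to each sum the distal sum exceeded the proximal by 1.26, 1.87, 0.56 and 2.16 on the log2 scale (1.46 ± 0.71, positive in 4 of 4 libraries; exact sign-flip permutation test, p = 0.125, two-sided, the smallest possible). Over the 806 genes the same measure was 1.03, 1.32, 0.44 and 0.92 (0.93 ± 0.36), so distal sites led in the table as a whole, and the difference between the group and the table was not tested. Syt11 had 18 of 20 tags at its distal site 2980 bases past the stop codon, and Sv2a had 11 of 12. In Syt7 the most distal listed site held 10 of 12 tags, but it lay well before the annotated end of the transcript. Stxbp5 went the other way, with 6 of 7 tags at the proximal site 942 bases past the stop codon.

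Under the stricter rule of sites seen in more than 1 library, Syn2 was the single gene left with several 3′UTR sites. Its proximal site (chromosome 6, position 115276536, plus strand) had 6, 0, 1 and 2 tags and its distal site (115281974) had 1, 1, 0 and 0. The 2 sites end transcripts with 3′UTRs of 2212 and 751 bases. The log2 ratio of distal to proximal was -2.12, 1.58, -1.58 and -2.32, with a mean of -1.11 ± 1.82 (exact sign-flip permutation test, p = 0.375, two-sided), so its direction was opposite to that of the 15 genes and differed between libraries.

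Many genes of the family were not seen. By its name the table holds neuropil tags that overlap Camk peaks, so a gene without such a peak would be absent whatever its level. RefSeq holds 89 protein-coding genes whose symbols match the rule, of which 56 were in the table by name, 3 by position and 30 not at all. Those without a tag included Pclo, Napa, Dnm2, Stx3, Stx6, Stx8, Snap29, Sv2c, Vamp7, Syt3 and Syt12. With no tag, a share could still reach 0.0187%, 0.0454%, 0.0504% and 0.0492% in libraries 1 to 4, each taken alone. The mean share of Syt4, 0.0219%, was below that limit in 3 of them but above it in library 1. Transcripts at that level could thus have been missed in those 3 taken singly. The genes named here had no tag in any of the 4, so these limits do not show that they stood at that level. 

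A list of 40 further presynaptic genes outside the rule had 147 tags, with 28 genes detected by name and a share of 0.455% ± 0.0996. Rab3c, a vesicle GTPase, had 5, 3, 1 and 5. Of the detected genes, 26 had 8 tags or fewer, among them Rab3a with 7 and Erc2 with 6. Slc17a7, the vesicular glutamate transporter of these neurons, was at 0 by name and had 8, 3, 4 and 8 tags by position, under the name Mir7055. As with Syt1 and Syn1, the gene name in the table and the gene at the site differed.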

How the data were processed

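The study made 4 cTag-PAPERCLIP libraries from microdissected CA1 neuropil. The authors deposited raw tag counts per library at polyA sites 1 base wide, named by gene and strand. Per the labels, cutadapt, Novoalign and mm10 were used. Per the methods, tags were mapped to the genome and clustered with CTK. How duplicate and multiply mapping tags were handled is not given in the sources used here. Libraries held 5947 to 16017 tags, so a share below about 0.05% rests on few tags.

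Members were matched by gene name in the table. The members and gene lists were chosen with earlier results of these data known. Sites were annotated with GENCODE vM21, on the strand of the site, and sequences and GC content came from RefSeq GRCm38.p6. This left 3 of the 9297 sites unannotated and outside the counts by class, signal or length. AATAAA or ATTAAA was sought within 50 bases on either side. The 10 variant words, used in an alternative, were AGTAAA with TATAAA, then CATAAA with GATAAA, then AATATA with AATACA, then AATAGA with ACTAAA, and last AAGAAA with AATGAA. Words on the opposite strand were not searched. Some genes that the naming rule covers are not reported here, though they stay in the totals. The text otherwise names Snap25, members with at least 10 tags or with several sites in more than 1 library, and the remaining members by total. Counts by library for Napb, Stxbp5, Syt4, Synj1 and Snap91, outside that rule, were chosen after their values were seen.

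Values are given as percent of a library's tags, as mean ± SD over 4 libraries. Single shares have 95% Wilson intervals. A count of 0 was read as up to 3 tags. Differences within libraries were tested with a two-sided exact sign-flip permutation test. There was 1 group, so no test between groups was made. Nothing in the labels says that the libraries came from separate animals, and the p-values refer to these libraries only. When all 4 differences share a sign, the exact sign-flip permutation test returns its smallest possible value, whatever the spread between libraries. The statistics were tested on simulated data. Alternatives left out each library, used sites in more than 1 library, 3′UTR tags, vM21 names, other windows or single genes, as given in the closing section. Python 3.11.15 was used with pandas 2.3.3, NumPy 2.4.6, SciPy 1.17.1 and Matplotlib 3.10.9.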

Additional observations from a re-analysis of the deposited data

Results flagged for a closer look

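Among 30 values with a measurement in each library, 3 had 1 library far from the rest by the 95% limit on the gap to its neighbour as a part of the full range. About 1.5 would be picked out by chance. The total of library 1 (16017 tags) had a gap of 0.934 of the range. The vesicle SNARE share of the group, which is mostly Vamp2, was 7.95% in library 1 and 2.91% to 3.40% in the others, a gap of 0.903. The share of Sv2a was 0.0908% in library 2 and 0.0164% to 0.0250% in the others, a gap of 0.885, from 6 tags. No cause was tested for any of these.

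Tags at genes of the machinery that the table lists under other names stood above the 3 tags that a count of 0 allows. Syt1 had 19 tags under the name Gm5136, and Syn1 had 4 under the name Mir5617.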

How the results depend on the processing

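Of 95 recomputed values of the main results, 82 kept their direction or stayed within the spread, and of 144 recomputed single-gene shares 142 stayed within 1 SD. The SDs are wide, and for 8 of 18 genes leaving out 1 library moved the mean share by over 1.5 times. Among these, Snap25 was at 0.281%, Cplx1 at 0.0240%, Sv2b at 0.0245%, Syp at 0.0204% and Syngr1 at 0.0199% without library 4, Snap47 at 0.0277% without library 3 and Sv2a at 0.0194% without library 2. The exceptions to the 1 SD limit were Nsf, at 0.0369% over sites in more than 1 library and 0.0388% of 3′UTR tags. The log2 ratio of distal to proximal tags reversed from -1.11 to 1.46 when all listed sites were used in place of sites in more than 1 library, that is 15 genes in place of Syn2 alone. It was -0.95 and -0.71 without libraries 3 and 4, and had no value without library 1 or 2. Member sites in more than 1 library numbered 33, and 15 with tags required in all 4 libraries or 21 with at least 2 tags per library. The share of sites with a polyA signal was 80.5%, and 93.9% at sites in more than 1 library, 20.7% with the search limited to bases upstream, 69.5% with AATAAA alone and 90.2% with 10 variant words. Over all sites these were 78.2%, 84.3%, 30.3%, 64.5% and 92.8%, so the group was below the table in the upstream search and with variants, and above it in the rest. Without its leading gene, a role's share was 11.2% for plasma membrane SNAREs, 7.35% for synaptotagmins, 2.42% for active zone proteins and 0.305% for vesicle SNAREs. Within 1 SD of their main values were SNARE regulators at 14.4%, endocytic proteins at 3.25%, and vesicle membrane proteins and synapsins at 9.90%. Endosomal, Golgi and reticulum SNAREs, at 1.48%, also stayed within it. At sites in more than 1 library synaptotagmins took 8.45% and endosomal, Golgi and reticulum SNAREs 0%. Leaving out each library gave 1.27% to 1.75% for the share of the group and 18.6 to 25.2 points for the 3′UTR difference. The GC difference ran from 1.73 to 3.15 points without 1 library and was 1.43 points with 50 bases on either side. Its values of 2.24 points at 3′UTR sites and 3.38 there with 50 bases, the values without Snap25 or without the most tagged site, and the variant words were alternatives added after seeing the data. No paired analysis was possible because the labels give a single group. With 4 libraries the exact sign-flip test cannot pass the usual threshold, so its p-values say nothing about stability.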
